A study of Capra hircus with 10 samples.

Results

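The genes described here encode the core machinery that turns cholesterol into progesterone. They were chosen by symbol from a transcript table of the goat ovary, taking protein-coding rows only, and the rule uses no measured value, although earlier results of these data were known when it was set. All 9 listed symbols were found, out of 20587 gene symbols in the table, and together they have 23 transcript models. They are SCARB1, NPC1, NPC2, STARD3, STAR, FDX1, FDXR, 3BHSD and LOC102173131, whose synonyms in the RefSeq goat gene table include CYP11A1 and which is called CYP11A1 below.

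Whole ovaries of Anhui white goats had been collected at a slaughterhouse, and 5 of them were labelled luteal phase and 5 follicular phase. No treatment is named for either group, and the age of the goats and the way the phase was assigned are not given in the sources used here. The labels do not say whether the ovaries of a group came from separate animals, so the p-values measure only the spread between these ovaries. From the total RNA of each ovary ribosomal RNA was removed, and 1 library that keeps the strand was sequenced from both ends. The values are FPKM, fragment numbers corrected for transcript length and for the size of the library. Levels can thus be compared between genes and, as far as this scaling holds, between ovaries.

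Progesterone is made in steroidogenic cells, above all in those of the corpus luteum, the gland that forms from the ovulated follicle. Cholesterol enters the cell from lipoproteins, leaves the lysosome with the help of the NPC proteins and is carried across the mitochondrial membranes, a step that STAR controls. Inside the mitochondrion CYP11A1 cuts the side chain to give pregnenolone, using electrons that FDXR and FDX1 pass on from NADPH, and 3BHSD, a 3-beta-hydroxysteroid dehydrogenase, then forms progesterone. No sequence of these genes was used here.

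The sum of FPKM over all transcripts lay between 452508 and 503276 in the luteal phase ovaries and between 492324 and 540124 in those of the follicular phase. Read counts were not used here, so the depth behind each value is unknown. FPKM was summed for each gene, 0.1 was added, and limma was run on the log2 values of the 15359 genes that reached 0.1 FPKM in 5 or more ovaries. Fold changes are luteal over follicular throughout. All 9 genes passed this filter. All p-values are two-sided, Benjamini-Hochberg adjustment took in every gene tested, and an adjusted p under 0.05 is a call. Of all tested genes 43.7% were called, 15.9% as higher and 27.8% as lower in the luteal phase. The luteal share of these calls was 36.3%, and it was 48.8% when all ovaries were set to the same median and 48.7% on the TPM scale. The median log2 fold change of all genes was -0.14.

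In the luteal phase 8 of the 9 genes rose and none fell, against the 15.9% of all genes called as higher. STAR, 3BHSD and CYP11A1 rose most, followed by SCARB1 and FDX1. FDXR and NPC1 rose by less, NPC2 rose by least, and STARD3 was not called. The median log2 fold change of the 9 genes was 3.40. In 7 of the 9 genes every luteal phase ovary was above every follicular phase ovary, which held for 11.2% of all genes tested, and the phases were apart in either direction for 28.4%. STAR, 3BHSD, CYP11A1 and SCARB1 were among the 41 genes, 0.267% of those tested, that were called with a log2 fold change of at least 4. SCARB1, at 4.01, was just past this value and fell short of it with a pseudocount of 1 (3.89) and without luteal phase ovary 4 or 5 or follicular phase ovary 3 or 4 (as low as 3.92). Together the 9 genes took between 1.74% and 2.49% of the FPKM of all mRNA in the luteal phase (median 2.05%) and between 0.0652% and 0.0829% in the follicular phase (median 0.0754%). In a whole ovary, fewer cells of a type and less RNA per cell cannot be told apart.

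**Figure D1:**
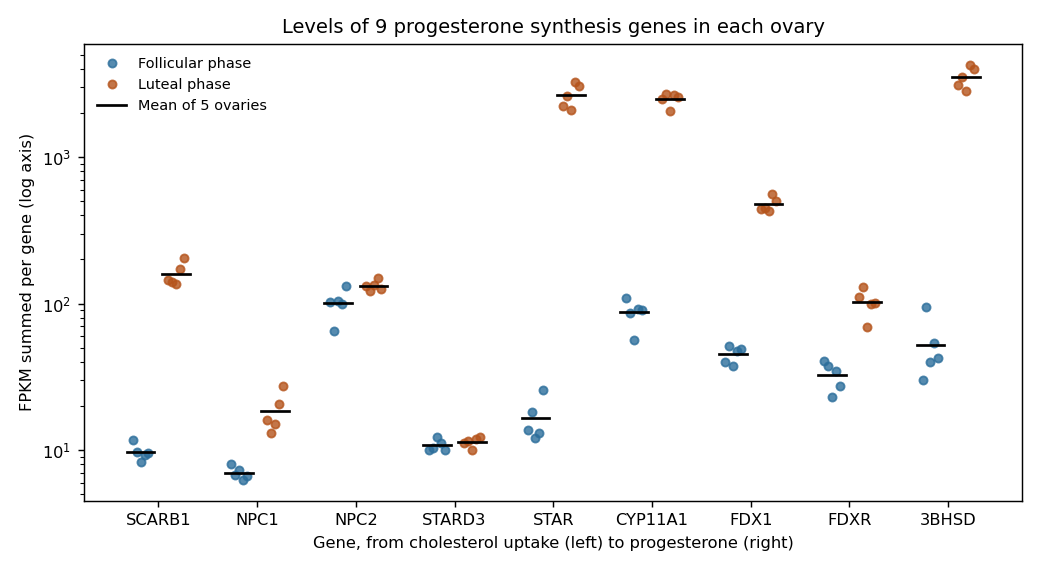
FPKM summed per gene (log axis) of the 9 genes in each of 5 follicular phase and 5 luteal phase ovaries, with the mean of each phase as a line. STAR sits at 12.1 to 25.7 in the follicular phase and at 2081 to 3245 in the luteal phase, while the ovaries of the phases lie among each other for STARD3.

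STAR, the protein that brings cholesterol to the inner mitochondrial membrane, was at 2238, 2615, 2081, 3245 and 3073 FPKM in luteal phase ovaries 1 to 5. In follicular phase ovaries 1 to 5 it was at 13.8, 18.3, 12.1, 13.2 and 25.7 FPKM. Every luteal phase ovary lay far above all follicular phase ovaries. The phase means were 2651 ± 507 and 16.6 ± 5.58 FPKM (SD, n = 5 each), a ratio of 159.6. The log2 fold change was 7.35 (standard error 0.20, limma adjusted p = 1.00e-09), which ranked 5 among all genes tested. Within the ovaries STAR ranked between 5 and 24 among all genes by FPKM in the luteal phase and between 2621 and 5395 in the follicular phase. STAR has 1 transcript model, so its value is that of a single transcript.

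CYP11A1, the side-chain cleavage enzyme, had luteal phase values of 2474, 2701, 2054, 2672 and 2573 FPKM. Its follicular phase values were 109.9, 86.5, 56.3, 91.8 and 90.4 FPKM. The ranges were far apart, but the follicular phase level of CYP11A1 was well above that of STAR in the same ovaries. The phase means were 2495 ± 262 and 87.0 ± 19.4 FPKM (SD, n = 5 each), and the log2 fold change was 4.87 (standard error 0.16, limma adjusted p = 3.36e-09). Both of its transcript models rose. NM_001287574.1 carried most of the level, at 2379.8 ± 249 FPKM in the luteal phase against 82.4 ± 18.3 in the other phase (SD, n = 5 each), and XM_018065821.1 was at 115 ± 16.6 against 4.61 ± 1.35.

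3BHSD, the enzyme of the last step, reached 3108, 3545, 2817, 4269.9 and 3993 FPKM in the luteal phase ovaries. In the follicular phase it was at 30.1, 94.2, 40.0, 53.9 and 42.7 FPKM. The groups did not overlap, and follicular phase ovary 2 was the highest of its group. The means were 3547 ± 601 and 52.2 ± 24.9 FPKM (SD, n = 5 each), and 3BHSD rose by 6.18 on the log2 scale (standard error 0.26, limma adjusted p = 3.51e-08). By FPKM, 3BHSD ranked between 2 and 11 among all genes in the luteal phase ovaries and between 647 and 2194 in the follicular phase ovaries. Its 3 transcript models, NM_001285716.1, XM_013962473.2 and XM_013962472.2, changed nearly alike, with log2 fold changes of 6.17, 6.31 and 6.05. NM_001285716.1 held 71.8 ± 1.24% of the gene's FPKM in luteal phase ovaries and 72.3 ± 2.29% in follicular phase ovaries (SD, n = 5 each).

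FDX1 encodes ferredoxin, the small iron-sulphur protein that hands electrons to CYP11A1. It was at 444, 453, 426, 556 and 503 FPKM in the luteal phase and at 39.7, 51.2, 37.7, 47.2 and 49.0 FPKM in the follicular phase. All luteal phase ovaries were above all follicular phase ovaries, and the values within each phase were close together. Means were 476 ± 52.8 and 45.0 ± 5.92 FPKM (SD, n = 5 each). The log2 fold change was 3.40 (standard error 0.11, limma adjusted p = 2.29e-09).

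FDXR, ferredoxin reductase, is the flavoprotein that takes the electrons from NADPH. Its luteal phase values were 111, 129, 69.6, 99.0 and 100.3 FPKM, and its follicular phase values were 40.6, 37.4, 23.1, 34.6 and 27.5 FPKM. The phases did not overlap, and ovary 3 was the lowest in both. Mean levels of 102 ± 21.7 and 32.6 ± 7.20 FPKM (SD, n = 5 each) differed by 1.64 on the log2 scale (standard error 0.18, limma adjusted p = 5.54e-05).

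SCARB1 encodes the scavenger receptor that takes up cholesterol esters from high-density lipoprotein. Luteal phase ovaries were at 146, 139.6, 136, 172 and 204 FPKM and follicular phase ovaries at 11.8, 9.68, 8.34, 9.22 and 9.62 FPKM. The luteal phase ovaries were again all higher. The means of 159.6 ± 28.5 and 9.73 ± 1.28 FPKM (SD, n = 5 each) differed by 16.4-fold, and the log2 fold change was 4.01 (standard error 0.12, limma adjusted p = 2.29e-09).

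NPC1, the lysosomal membrane protein through which cholesterol leaves, was at 16.0, 13.2, 15.2, 20.8 and 27.3 FPKM in the luteal phase and at 8.01, 6.76, 7.36, 6.25 and 6.62 FPKM in the follicular phase. The phases did not overlap, although luteal phase ovary 5 was 2.07 times luteal phase ovary 2. Its log2 fold change was 1.34 (standard error 0.17, limma adjusted p = 0.000158).

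NPC2, the soluble lysosomal protein that passes cholesterol to NPC1, was at 131, 122, 134, 149 and 125 FPKM in the luteal phase. The follicular phase values were 102, 64.8, 103, 99.3 and 132 FPKM. The ranges overlapped, since follicular phase ovary 5 was above 3 of the luteal phase ovaries. The log2 fold change was 0.43 (standard error 0.15, limma adjusted p = 0.0396). Of the 10 fits that each lacked 1 ovary, only those without follicular phase ovary 2 (log2 fold change 0.28) or 5 (0.54) kept this call, and the highest adjusted p was 0.0908. It was also lost with no filter (adjusted p = 0.0530), after quantile normalization (0.138) and with limma's eBayes run without trend (0.0558).

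STARD3, a membrane protein of late endosomes that shares the cholesterol-binding domain of STAR, had luteal phase values of 11.2, 11.4, 10.1, 11.8 and 12.4 FPKM. Its follicular phase values were 9.94, 10.4, 12.2, 11.2 and 10.1 FPKM. The ovaries of the phases lay among each other. The log2 fold change was 0.08 (standard error 0.08, 95% interval -0.10 to 0.27, limma adjusted p = 0.445).

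**Figure D2:**
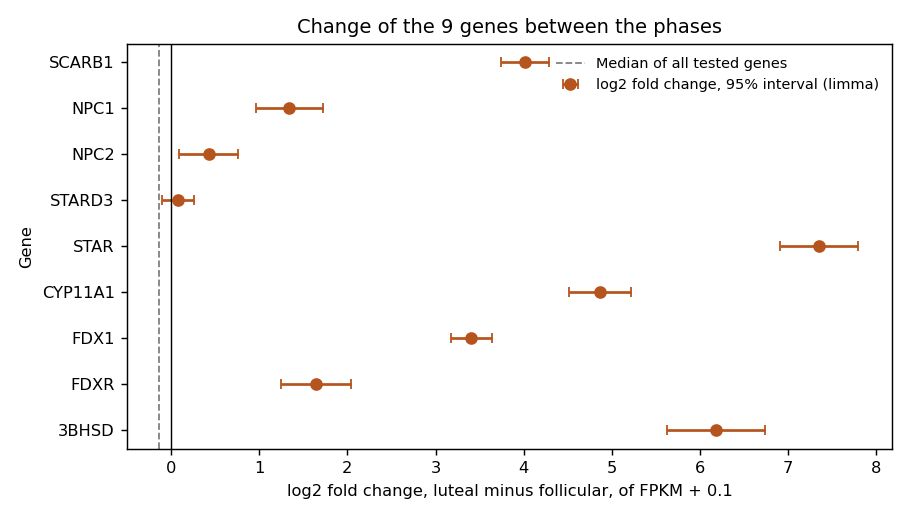
log2 fold change of FPKM + 0.1, luteal minus follicular, with its 95% interval from limma (5 ovaries against 5) for each of the 9 genes, ordered along the pathway; the dashed line is the median of all tested genes, -0.14. STAR is highest at 7.35, and the interval of STARD3 includes 0.

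The order of the genes by level differed between the phases. In the luteal phase the medians ran from 3BHSD at 3545 FPKM over STAR at 2615, CYP11A1 at 2573, FDX1 at 453, SCARB1 at 146, NPC2 at 131, FDXR at 100.3 and NPC1 at 16.0 to STARD3 at 11.4. STAR was above CYP11A1 in only 3 of 5 luteal phase ovaries, so these neighbours did not differ beyond their spread. The ranges of 3BHSD and STAR, SCARB1 and NPC2, and NPC2 and FDXR also overlapped, although 3BHSD was above STAR and SCARB1 above NPC2 in 5 of 5 ovaries. In the follicular phase NPC2 stood first at a median of 102 FPKM, followed by CYP11A1 at 90.4, FDX1 at 47.2, 3BHSD at 42.7, FDXR at 34.6, STAR at 13.8, STARD3 at 10.4, SCARB1 at 9.62 and NPC1 at 6.76. There NPC2 was above CYP11A1 in 3 of 5 ovaries and FDX1 above 3BHSD in 2 of 5, and neither pair was separated by its spread. The ranges of neighbours also overlapped from 3BHSD over FDXR, STAR and STARD3 to SCARB1, so only CYP11A1 and FDX1, and SCARB1 and NPC1, were neighbours with separate ranges. Hence STAR was near STARD3 in the follicular phase, and in the luteal phase it was near CYP11A1.

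Since both members of a pair come from the same library, a ratio between them depends little on the scaling of that library. For 7 pairs of these genes, chosen with earlier results of these data known, the log2 ratio of FPKM + 0.1 was taken in each ovary and the phases were compared by a two-sided exact permutation test. In all 7 pairs the phases did not overlap and the exact permutation p was 0.00794, the smallest that 5 ovaries against 5 allow, also after Benjamini-Hochberg adjustment over the 7 pairs. The share of other gene pairs that separate the phases was not computed, so the count is a description of these pairs. Each difference of a log2 ratio is the difference of the log2 fold changes of its genes given above, so the ratios are not separate evidence. STAR relative to CYP11A1 was at -2.41 ± 0.47 in the follicular phase and at 0.07 ± 0.19 in the luteal phase (SD, n = 5 each). This log2 ratio was higher by 2.48 in the luteal phase. That of 3BHSD to CYP11A1 was higher by 1.31, with a wide follicular range of -1.86 to 0.12 and a luteal range of 0.33 to 0.68.

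The electron carriers moved the other way relative to the enzyme they serve. The log2 ratio of FDX1 to CYP11A1 was -0.93 ± 0.33 in the follicular phase and -2.39 ± 0.14 in the luteal phase (SD, n = 5 each), a difference of -1.46. FDXR relative to FDX1 went from -0.48 ± 0.33 to -2.25 ± 0.33, a difference of -1.77. Thus FDX1 rose less than CYP11A1, and FDXR less than FDX1. Upstream, the log2 ratio of NPC1 to NPC2 was higher by 0.91 in the luteal phase and that of SCARB1 to NPC1 by 2.67, from 0.47 ± 0.16 to 3.14 ± 0.18. STARD3 relative to STAR was lower by 7.26, which restates the rise of STAR.

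**Figure D3:**
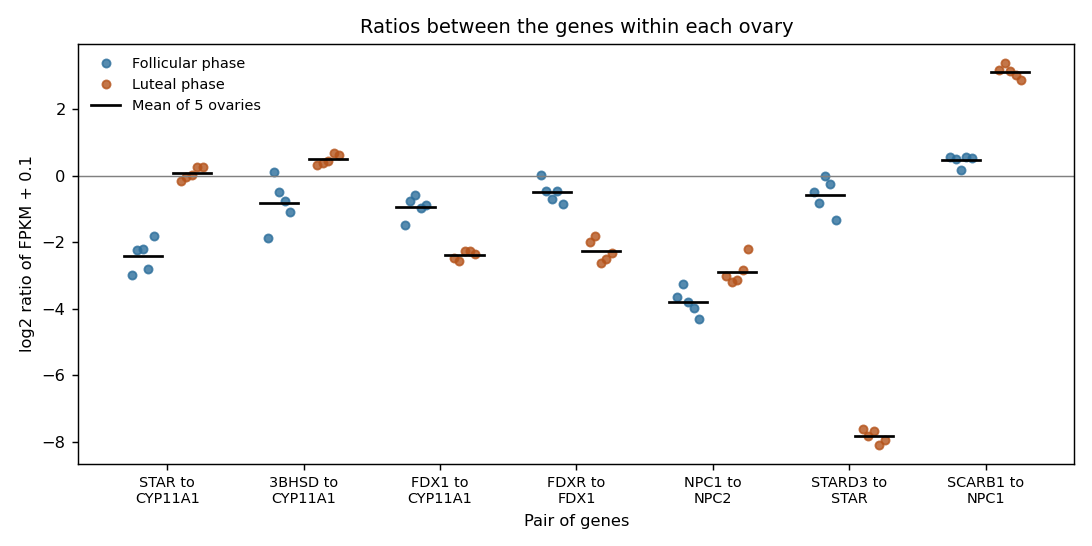
log2 ratio of FPKM + 0.1 of 7 pairs of genes within each ovary (points), with the mean of the 5 ovaries of each phase as a line. The phases do not overlap in any pair; the ratios to CYP11A1 rise for STAR and 3BHSD and fall for FDX1 in the luteal phase.

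The 23 transcript models were also tested singly, in a limma fit over all 32842 transcripts that passed the same filter, of which 17.3% were called with 7.47% called as higher and 9.82% as lower in the luteal phase. Of the 23 models 19 passed the filter, and 12 of these rose and none fell. The 7 models that were not called belong to NPC2, STARD3 and FDXR. The other 4 models, of STARD3 and FDXR, were below the filter. Models of a gene share most of their sequence, and their separate values depend on how the authors' quantification divided shared reads.

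SCARB1 has 3 models. XM_018061401.1 was at 89.9, 76.3, 108, 99.6 and 120.02 FPKM in luteal phase ovaries 1 to 5 and at 9.94, 8.79, 7.03, 7.66 and 5.63 in follicular phase ovaries 1 to 5 (log2 fold change 3.65, standard error 0.16, limma adjusted p = 6.22e-07). XM_018061403.1 was at 55.4, 62.8, 27.5, 72.3 and 83.3 against 1.77, 0.818, 1.25, 1.56 and 3.58 FPKM (log2 fold change 5.06, standard error 0.38, limma adjusted p = 2.48e-05). Both rose without overlap. The rare XM_018061402.1, at 0.465 to 0.687 FPKM against 0.000548 to 0.414, rose as well (log2 fold change 1.72, limma adjusted p = 0.0143). At these low levels the size of its change depends on the added 0.1, and it was 0.46 with a pseudocount of 1 and 2.19 on the TPM scale. In the follicular phase only ovary 5 reached 0.1 FPKM. The model thus passed the filter through its luteal phase values, and its call leans on the filter. XM_018061403.1 held 37.2 ± 9.85% of SCARB1 in luteal phase ovaries and 18.5 ± 10.9% in follicular phase ovaries (SD, n = 5 each). Luteal phase ovary 3, at 20.2%, and follicular phase ovary 5, at 37.2%, lay with the other group.

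FDXR has 6 models, and its rise was uneven among them. XM_018063854.1 was at 19.4, 40.6, 31.3, 32.4 and 59.5 FPKM in the luteal phase and at 2.07, 2.39, 0.527, 2.44 and 3.64 FPKM in the follicular phase (log2 fold change 4.10, standard error 0.45, limma adjusted p = 0.000275). XM_018063855.1, the most abundant model in the follicular phase, was at 68.2, 88.7, 32.9, 16.9 and 15.9 against 27.4, 25.7, 16.1, 27.5 and 21.3 FPKM (log2 fold change 0.60, standard error 0.47, adjusted p = 0.417). Luteal phase ovaries 1 and 2 were high for this model, while ovaries 4 and 5 were within or just below the follicular phase range. Without 1 ovary its log2 fold change ran from 0.27 to 0.89 and was not called. XM_018063851.1 was listed at 0 in luteal phase ovary 2 and at 49.7 FPKM in luteal phase ovary 4. A value of 0 can be a failed estimate. Over the luteal phase ovaries XM_018063855.1 spanned 5.59-fold and FDXR as a whole 1.86-fold, while over the follicular phase ovaries they spanned 1.71-fold and 1.76-fold.

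For the 13 models that held on average between 5% and 95% of their gene, from 5 genes, the share was compared by a two-sided exact permutation test. None passed a Benjamini-Hochberg adjusted p of 0.05, and 4 had an unadjusted p under 0.05. With 13 shares a call needed at least 3 of them at the smallest possible p, or more of them at a somewhat higher p. No share could thus be called on its own, and this design could hardly give a call. XM_018063854.1 of FDXR had a share of 37.2 ± 15.7% in luteal phase ovaries and 6.81 ± 4.04% in follicular phase ovaries (SD, n = 5 each), higher in 5 of 5 luteal phase ovaries than in any follicular phase ovary (exact permutation p = 0.00794, adjusted 0.0688). The share of XM_018063855.1 was 42.1 ± 24.6% against 72.6 ± 5.51% (exact permutation p = 0.0159, adjusted 0.0688). For XM_018061403.1 of SCARB1 the exact permutation p was also 0.0159 and the adjusted p 0.0688. Shares within a gene add up to 100%, so these tests are not independent of each other.

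**Figure D4:**
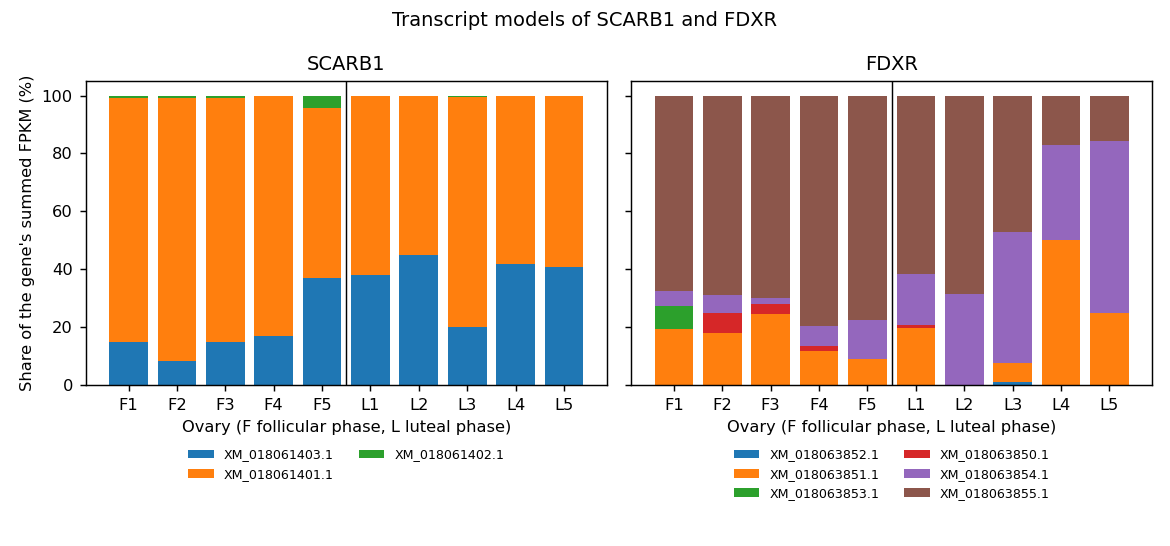
Share (%) of each transcript model in the summed FPKM of SCARB1 (3 models) and FDXR (6 models), stacked, for follicular phase ovaries F1 to F5 and luteal phase ovaries L1 to L5. XM_018063854.1 of FDXR takes 2.28% to 13.2% in the follicular phase and 17.5% to 59.3% in the luteal phase.

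For NPC2 and STARD3 no model was called. XM_005686076.3 held 76.8 ± 9.999% of NPC2 in luteal phase ovaries and 69.7 ± 12.2% in follicular phase ovaries (SD), and the exact permutation p over these 5 and 5 was 0.341. Its own log2 fold change was 0.58 (standard error 0.23, limma adjusted p = 0.107), and without follicular phase ovary 5 it was called (0.77, adjusted p = 0.0169). STARD3 was carried by XM_005693748.3, at 88.3%, 93.8%, 32.1%, 99.3% and 99.0% of the gene in luteal phase ovaries 1 to 5 and at 99.0%, 49.5%, 69.5%, 96.1% and 68.7% in follicular phase ovaries 1 to 5. XM_018065006.1 took 66.6% in luteal phase ovary 3 and 39.3%, 29.8% and 29.1% in follicular phase ovaries 2, 3 and 5. In luteal phase ovary 3 the lead thus passed to it, although the sum for STARD3 in that ovary, 10.1 FPKM, was close to the others.

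Single ovaries differed in a way that many of the genes shared. How often each ovary was highest or lowest over all genes was not computed, so the counts below describe the 9 genes only. Luteal phase ovary 3 was the lowest luteal phase ovary for 7 of the 9 genes, all but NPC1 and NPC2. Follicular phase ovary 3 was the lowest of its group for 5, namely SCARB1, STAR, CYP11A1, FDX1 and FDXR. Luteal phase ovary 4 was the highest for 4 genes and luteal phase ovary 5 for 3. Even so, the highest luteal phase ovary was between 1.22 and 2.07 times the lowest for every one of the 9 genes. Without luteal phase ovary 3 the log2 fold changes were 7.43 for STAR, 6.26 for 3BHSD, 4.94 for CYP11A1, 4.07 for SCARB1, 3.44 for FDX1, 1.77 for FDXR and 1.402 for NPC1, and these calls remained. For NPC2 it was 0.43 with an adjusted p of 0.0649 in limma.

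The other genes of cholesterol supply and steroid synthesis were taken from a list of 23. The table held 19 of them, among them CYP17A1 through its synonym under the symbol LOC102182663, and FDX2, CYP21A2, CYP11B1 and POR were not analysed here. In the luteal phase 7 of the 18 tested genes rose, 3 fell and 8 were not called, where 15.9% of all genes rose and 27.8% fell. Their median log2 fold change was 0.20, against -0.14 for all genes. STARD6 was below the filter.

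Among the genes that rose, STARD4, a soluble sterol carrier of the STAR family, was at 69.9 ± 15.4 FPKM in luteal phase ovaries and 15.8 ± 1.14 in follicular phase ovaries (SD, n = 5 each, log2 fold change 2.11, limma adjusted p = 2.34e-06). LIPA, the lysosomal lipase that frees cholesterol from its esters, rose by a log2 fold change of 1.51 (adjusted p = 0.000165). The hydrolases NCEH1 and LIPE, which act on cholesterol esters outside the lysosome, rose by 1.07 and 0.75 (adjusted p = 0.00106 and 0.0132), and for LIPE the value was 0.47 with a pseudocount of 1. SOAT1, which makes cholesterol esters, had a log2 fold change of 0.22 and was not called (adjusted p = 0.118), but it was called on the TPM scale (0.30, adjusted p = 0.0326) and without follicular phase ovary 2 (0.30, adjusted p = 0.0223). ABCA1, which exports cholesterol, was not called (-0.16, adjusted p = 0.486). Without 1 ovary its log2 fold change ran from -0.25 to -0.037 and was not called.

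At the mitochondrion, TSPO and its ligand DBI rose, by log2 fold changes of 1.18 and 1.49 (limma adjusted p = 6.87e-05 and 0.000170). VDAC1, a channel of the outer membrane, was at 73.8 ± 6.01 and 66.1 ± 10.8 FPKM (SD, n = 5 each) and was not called (0.17, adjusted p = 0.236). Without 1 ovary its log2 fold change ran from 0.091 to 0.23 and was not called. ACBD3 and STARD5 were not called either. The last of the 7 that rose was HSD3B7, which acts in bile acid synthesis (0.66, adjusted p = 0.0396). Among the fits that each lacked 1 ovary its call held only without follicular phase ovary 2 (0.89) or luteal phase ovary 3 (0.74), and the highest adjusted p was 0.0811.

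The 3 genes of the list that fell were CYP17A1, HSD17B1 and CYB5A. CYP17A1, which makes androgen precursors, was at 7.48 ± 3.88 FPKM in luteal phase ovaries and 23.4 ± 10.2 in follicular phase ovaries (SD, n = 5 each, log2 fold change -1.71, limma adjusted p = 0.00390). HSD17B1, which makes oestradiol from oestrone, was at 25.4 ± 9.38 against 58.5 ± 16.1 FPKM (log2 fold change -1.24, adjusted p = 0.00520). CYB5A, a cofactor of CYP17A1, fell as well (-0.59, adjusted p = 0.00977). CYP19A1, the aromatase, ranged widely, from 5.49 to 110.7 FPKM among luteal phase ovaries and from 18.1 to 182 FPKM among follicular phase ovaries. Its log2 fold change of -1.32 was not called (standard error 0.75, adjusted p = 0.174), and it was -0.75 without luteal phase ovary 3 and -1.83 without luteal phase ovary 1. SRD5A1 and HSD11B1 were not called.

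**Figure D5:**
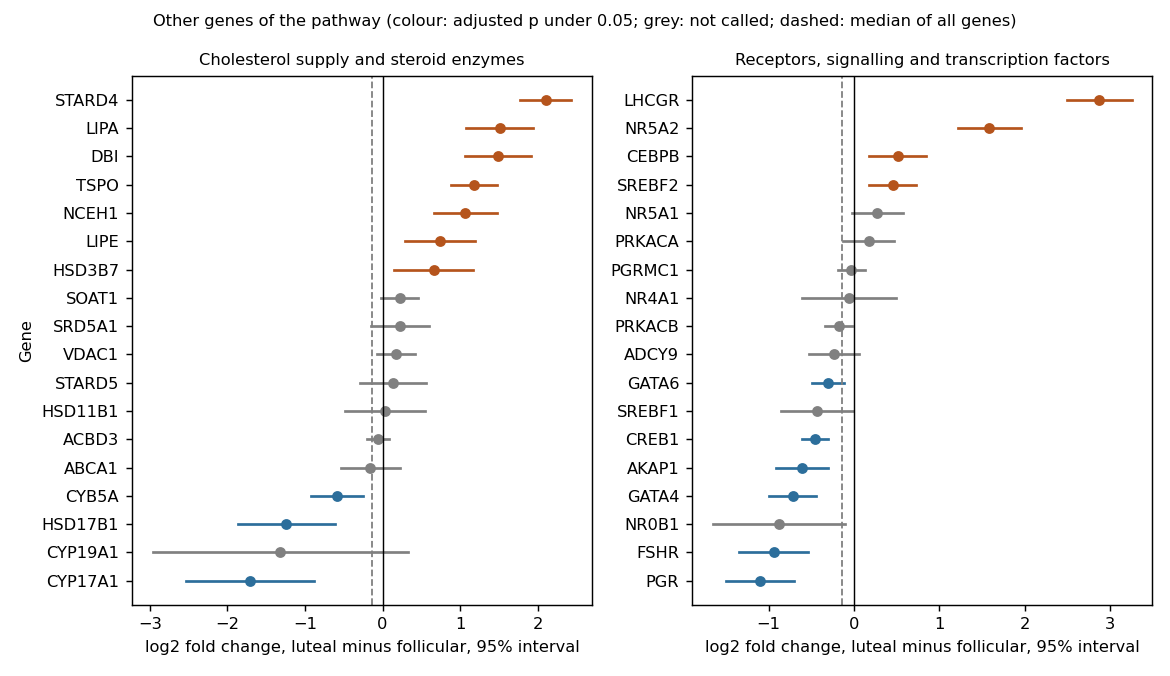
log2 fold change, luteal minus follicular, with its 95% limma interval for 18 genes of cholesterol supply and steroid synthesis (left) and 18 receptors, kinases and transcription factors (right), coloured where the adjusted p is under 0.05; MC2R, listed at 0 in every follicular phase ovary, is not drawn. STARD4 and LIPA are highest on the left at 2.11 and 1.51, and LHCGR and NR5A2 on the right at 2.87 and 1.58.

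A list of 19 receptors, kinases and transcription factors of steroidogenesis was tested whole, and 5 rose, 6 fell and 8 were not called, where 15.9% of all genes rose and 27.8% fell. The median log2 fold change was -0.18, near the -0.14 of all genes. Of the 5 that rose, MC2R, the receptor for adrenocorticotropic hormone, was listed at 0 in every follicular phase ovary and passed the filter through the luteal phase alone, so its call was set by the filter. It was not tested when a luteal phase ovary was left out. LHCGR, the receptor for luteinising hormone, rose from 12.5 ± 3.66 to 90.5 ± 14.1 FPKM (SD, n = 5 each, log2 fold change 2.87, limma adjusted p = 5.95e-07). The nuclear receptor NR5A2 rose from 12.2 ± 2.76 to 36.5 ± 7.16 FPKM (log2 fold change 1.58, adjusted p = 4.34e-05). Its relative NR5A1, which binds the same kind of site, was at 30.1 ± 3.50 and 36.8 ± 7.04 FPKM and was not called (log2 fold change 0.27, adjusted p = 0.121). Of the fits that each lacked 1 ovary, the one without luteal phase ovary 3 called it (0.39, adjusted p = 0.0118). CEBPB and SREBF2 rose by 0.51 and 0.45 (adjusted p = 0.0182 and 0.0145).

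Among the factors that fell were FSHR, the receptor for follicle-stimulating hormone (-0.94, limma adjusted p = 0.00210), and PGR, the nuclear progesterone receptor (-1.10, adjusted p = 0.000793). GATA4, GATA6 and CREB1 fell by less, with log2 fold changes of -0.72, -0.31 and -0.46 (adjusted p = 0.00110, 0.0130 and 0.000481). The call for GATA6 was lost on the TPM scale (-0.24, adjusted p = 0.0980). AKAP1, which anchors protein kinase A at mitochondria, fell by 0.61 on the log2 scale (adjusted p = 0.00459). The kinase subunits PRKACA and PRKACB had log2 fold changes of 0.17 and -0.18 and were not called (adjusted p = 0.330 and 0.0673), and NR4A1, NR0B1, SREBF1, ADCY9 and PGRMC1 were not called. Leaving out 1 ovary brought calls for PRKACB (without follicular phase ovary 2 or luteal phase ovary 3), NR0B1 (without follicular phase ovary 2 or luteal phase ovary 1 or 3) and SREBF1 (without follicular phase ovary 4 or luteal phase ovary 1).

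Genes with a profile over the 10 ovaries most like that of STAR, CYP11A1 and 3BHSD were found by the root mean square difference of log2(FPKM + 0.1), after the mean of each gene over the ovaries was subtracted. For STAR, among 15350 other genes, these were KIAA1324 (0.37), RGN (0.39) and PTHLH (0.45). RGN, regucalcin, was at 228 to 534 FPKM in the luteal phase and at 2.21 to 2.73 in the follicular phase. PTHLH, a relative of parathyroid hormone, was at 36.1 to 55.2 and at 0.139 to 0.393 FPKM.

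The profile of CYP11A1 was nearest to those of CHRNA2, a nicotinic receptor subunit (0.31), KCNE4, a potassium channel subunit (0.33), and ABHD12B (0.36). CHRNA2 was low throughout, at 1.88 to 3.38 FPKM in the luteal phase and at no more than 0.0400 in the follicular phase, and ABHD12B was at 0.00948 to 0.110 there. At such levels the added 0.1 sets the size of the change, so the places of CHRNA2 and ABHD12B rest on it. CHRNA2 also passed the filter through the luteal phase alone, so it was compared only because it is high there. KCNE4 was at 38.2 to 70.4 against 1.38 to 2.75 FPKM. For 3BHSD the nearest were SLC16A12, of the monocarboxylate transporter family (0.54), MSMB (0.57) and KIAA1324 (0.61). The places of KIAA1324 (0.0867 to 0.285 FPKM in the follicular phase), PTHLH and SLC16A12 (0.180 to 0.562 FPKM) also depend on the added 0.1. Among the other 8 genes described here, the nearest to STAR was 3BHSD (0.72) and the nearest to CYP11A1 was SCARB1 (0.47).

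Markers of the corpus luteum outside the 9 genes were also higher in the luteal phase. OXT, the oxytocin gene, was at 2607, 1977, 1021, 1123 and 1133 FPKM in luteal phase ovaries 1 to 5 and at 0.322 to 3.05 FPKM in the follicular phase. PTGFR, the receptor for prostaglandin F, was at 510 to 595 and at 13.8 to 44.7 FPKM. The labelled phases were thus matched by the luteal markers in all 10 ovaries.

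Markers of other cell types also differed between the phases, and their counts are to be read against the 15.9% of all genes that rose and the 27.8% that fell. Of 6 endothelial markers 5 rose and none fell, with summed FPKM of 207 to 258 in luteal phase ovaries against 106 to 128 in follicular phase ovaries. Of 4 smooth muscle markers 4 fell (267 to 487 against 630.02 to 773), and both theca cell markers fell (17.1 to 69.2 against 139 to 202). In the granulosa cell list 3 of 6 fell and none rose, with sums of 92.0 to 639 and 203 to 1054 FPKM, and in the oocyte list 4 of 6 fell (7.27 to 16.4 against 13.9 to 32.9). Of 5 stroma markers 2 rose (1929 to 3463 against 1705 to 2415), and of 4 leukocyte markers 1 rose (43.0 to 48.8 against 24.8 to 53.8). Of the red blood cell markers AHSP was at most at 0.729 FPKM and not called, ALAS2 was below 0.1 in every ovary, and the haemoglobin genes HBB, HBA and HBA1 were not analysed here. The part of these cell types in the changes of the 9 genes was not tested.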

How the data were processed

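The authors aligned the reads of each ovary with HISAT2, used StringTie to assemble transcripts and took FPKM for each transcript and ovary from Cuffdiff. The genome build is not given in the sources used here, and ovaries were not pooled. The deposited table holds 50146 transcripts, 43766 of them mRNA. The separate mRNA and annotated lncRNA tables repeat its values row for row. No read counts were used, so a count test could not be applied, and only the spread between ovaries measures the precision.

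For each gene symbol the FPKM of its mRNA transcripts were added up. The tests were limma 3.58.1 in R 4.3.3 (lmFit, eBayes with trend) on log2(FPKM + 0.1), with Benjamini-Hochberg adjustment, and exact permutation tests in Python 3.11.15 with scipy 1.17.1, numpy 2.4.6 and pandas 2.3.3. Fold changes on this scale understate the change of low genes. Figures were drawn with matplotlib 3.10.9. The fits had no other term than the phase. The genes, gene lists and pairs were chosen with earlier results of these data known. A gene of the list of cholesterol genes is not reported here and is left out of its counts. The listed genes were all open to naming, besides the 3 genes nearest in profile to STAR, CYP11A1 and 3BHSD. Symbols absent from the table were matched through synonyms of the RefSeq gene table of goat assembly ARS1.2. Alternatives were other pseudocounts (1 and 0.01), filters (none, 0.5), scalings (common median, quantile, TPM), eBayes without trend, a replicate block, a threshold of 0.01 and leaving out each ovary.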

Additional observations from a re-analysis of the deposited data

Results flagged for a closer look

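In each phase, the highest or lowest of the 5 ovaries was called far from the others where its gap to the nearest one, divided by the range of the phase, exceeded Dixon's critical value of 0.71. This was checked in 94 sets of 5 values and found in 9, where chance alone gives about 1 in 20 independent sets. These sets are not independent, since a model's FPKM and the shares of a gene's models move together. Luteal phase ovary 3 accounts for 6 of them. For STARD3 its XM_005693748.3 was at 3.23 FPKM against 9.93 to 12.2 in the other luteal phase ovaries, and its XM_018065006.1 was at 6.70 against 0.0537 to 1.12. The corresponding shares of STARD3 were 32.1% against 88.3% to 99.3% and 66.6% against 0.454% to 9.996%. For SCARB1 the share of XM_018061403.1 in this ovary was 20.2% against 38.0% to 45.0%, and that of XM_018061401.1 was 79.3% against 54.6% to 61.7%.

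The share of XM_018061401.1 was 58.5% in follicular phase ovary 5, against 83.1% to 90.8% in the other follicular phase ovaries. The second model of CYP11A1, XM_018065821.1, was at 6.93 FPKM in follicular phase ovary 1 against 3.44 to 4.44. The log2 ratio of SCARB1 to NPC1 was 0.18 in follicular phase ovary 3 and 0.51 to 0.55 in the others of its phase. None of the 9 genes, summed over its models, had such an ovary in either phase.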

How the results depend on the processing

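Under the alternatives run for each, the number of the 9 genes called stayed at 7 or 8, the member transcripts called at 12 or 13, the ratios called at 7 of 7 and the shares called at 0. In the list of cholesterol and steroid genes 6 to 8 were called as higher and 3 or 4 as lower. Of 1194 single values 1132 kept their direction and side of the threshold, 21 lost a call, 15 gained one and 26 changed sign, and only uncalled results changed sign. With a shift to a common median and on the TPM scale these were ACBD3 (0.025 and 0.015), NR4A1 (0.028 and 0.019) and PGRMC1 (0.053 and 0.044). When 1 ovary was left out, the log2 fold change spanned -0.0064 to 0.22 for STARD5, -0.16 to 0.13 for HSD11B1, -0.17 to 0.20 for NR4A1, -0.35 to 0.16 for XM_018053974.1, -0.027 to 0.48 for XM_005693748.3 and -0.36 to 1.88 for XM_018063851.1. The share difference spanned -1.58 to 0.135 percentage points for XM_018053975.1, -0.814 to 18.6 for XM_005693748.3, -16.1 to 1.07 for XM_018065006.1, -3.84 to 8.70 for XM_018063851.1 and -1.17 to 0.129 for NM_001285716.1. The cause was not tested.

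Equal replicate numbers were not shown to pair ovaries: the deviations of same-numbered ovaries correlated at 0.0258 to 0.199 across genes, above 0.1 in 2 of 5 pairs, and 2 of 5 luteal phase ovaries correlated best with their own number. With a replicate block 8 of the 9 genes were called, and 7020 of all genes against 6711 without it. The block brought CYP19A1 (adjusted p = 0.00603), NR5A1 (0.0440), NR0B1 (0.0414) and SREBF1 (0.0181) past the threshold in limma. In the ratio and share tests without 1 ovary the smallest possible exact permutation p is 0.0159. A call then needs 5 of 13 shares at it, or more of them at a higher p, so the 0 says nothing about stability. The authors give the number of clean reads for all libraries together only. Since the depth of each library is unknown, low transcripts such as those of STARD3 and FDXR carry an unknown counting error.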

Other observations

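MC2R, the receptor for adrenocorticotropic hormone, is a marker of the adrenal cortex, a tissue that shares STAR, CYP11A1 and 3BHSD with the ovary. It was listed at 0.332, 0.193, 0.644, 0.893 and 0.995 FPKM in luteal phase ovaries 1 to 5 and at 0 in all 5 follicular phase ovaries. These levels are low, and the other adrenal markers of the list, CYP11B1 and CYP21A2, were not analysed here.

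NR4A1, encoding a nuclear receptor, is given here because its values were seen to stand apart. It was at 69.6 FPKM in follicular phase ovary 5 and between 24.8 and 33.3 in the other follicular phase ovaries. Without this ovary its log2 fold change was 0.20 and was not called (limma adjusted p = 0.289). In the same ovary STAR was the highest of the follicular phase at 25.7 FPKM, and CYP17A1 was at 40.6 FPKM against 15.3 to 24.3 in the others. Of the 9 genes only STAR and NPC2 were highest in this ovary, and CYP11A1, 3BHSD and SCARB1 were at their follicular phase medians. The leukocyte markers PTPRC, CD68 and CSF1R were also highest in it, and CD14 was not. A link between these values was not tested.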
